A study of Homo sapiens with 6 samples.

Results

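The cadherins and delta protocadherins of the neuroblastoma line SK-N-AS (human) were followed through 3 cultures on 6 Affymetrix expression arrays, 2 per culture. The set was named gene by gene, and all probe sets whose platform symbol was one of the names were taken. It holds 10 genes, CDH2, CDH4, CDH6, CDH11, CDH13, PCDH7, PCDH9, PCDH10, PCDH17 and PCDH18. Of these, 8 had probe sets in the annotation used here, 30 of the 54675 on the array, and CDH4 and CDH13 were not analysed here. The leading probe set of each gene was chosen by its mean signal over the 6 arrays, the highest being taken, a measured value blind to the culture. For CDH2 the means of its probe sets were 12.11 and 9.79 on the log2 scale, and for PCDH7 the leading mean was 10.98 and the next 9.71. Monolayer cells grew attached and without drug. Sphere cells grew as spheroids in serum-free medium, also without drug. iCSC cells had first received 2.5 uM 5AdC, a drug that blocks DNA methylation, during 5 days of attached growth, and were then cultured as serum-free spheroids. All groups share 1 line. Separate dishes are not stated for replicate arrays, so the p-values reflect array-to-array spread only, and that spread may be technical.

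Classical cadherins are calcium-dependent adhesion proteins that pair with like molecules on the neighbouring cell and are tied to actin inside the cell through catenins. Delta protocadherins are single-gene members of the same superfamily, prominent in the developing nervous system. They adhere weakly, and their tails bind other partners, among them the phosphatase PP1 and the actin-regulating WAVE complex. Neural crest cells, from which neuroblastoma arises, change their cadherins as they migrate and settle.

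The 4 promoters printed here belong to members that differed between the cultures, and are shown because 5AdC acts on methylation at CG sites. The 250 bases before the RefSeq start (build GRCh38.p14) are given in the gene's own direction with every CG in capitals. They lie at chr4:30720119-30720368 (plus strand), chr13:67230337-67230586 (minus strand), chr4:137532495-137532744 (minus strand) and chr18:28177131-28177380 (minus strand).
PCDH7: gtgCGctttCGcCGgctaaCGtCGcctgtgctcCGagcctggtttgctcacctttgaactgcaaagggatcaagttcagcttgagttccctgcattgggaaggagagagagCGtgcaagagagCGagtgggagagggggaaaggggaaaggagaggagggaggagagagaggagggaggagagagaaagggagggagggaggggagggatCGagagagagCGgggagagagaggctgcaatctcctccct
PCDH9: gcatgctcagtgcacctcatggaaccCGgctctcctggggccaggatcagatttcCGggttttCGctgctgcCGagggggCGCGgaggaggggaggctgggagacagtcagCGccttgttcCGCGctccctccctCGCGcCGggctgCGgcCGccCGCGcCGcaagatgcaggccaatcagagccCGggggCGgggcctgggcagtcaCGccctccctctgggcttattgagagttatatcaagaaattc
PCDH18: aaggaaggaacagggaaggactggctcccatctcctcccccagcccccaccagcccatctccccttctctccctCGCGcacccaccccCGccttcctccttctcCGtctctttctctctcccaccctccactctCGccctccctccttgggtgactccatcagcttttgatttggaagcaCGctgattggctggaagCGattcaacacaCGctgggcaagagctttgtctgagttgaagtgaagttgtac
CDH2: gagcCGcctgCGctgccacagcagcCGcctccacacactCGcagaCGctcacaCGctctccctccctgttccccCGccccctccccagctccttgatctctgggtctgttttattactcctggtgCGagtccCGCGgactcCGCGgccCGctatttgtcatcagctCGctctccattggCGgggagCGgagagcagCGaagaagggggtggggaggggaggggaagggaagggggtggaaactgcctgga
PCDH9 held 20 CG in this window, CDH2 17, PCDH7 10 and PCDH18 8, beside a median of 11 over 35114 promoter windows of this length. The start RefSeq gives for PCDH17 lies inside the gene, and its window, which is not printed, held 10. On both strands, GGGCGG, the letters bound by SP and KLF factors and themselves holding a CG, occurred at 2 places before PCDH9 and 1 before CDH2, and in 42.6% of all windows. None of these 5 windows held TGANTCA (AP-1, 6.57% of all windows), CAGGTG (an E-box of ZEB and SNAI factors, 17.5%) or GGAATG (TEAD factors, 11.9%). A second RefSeq start of CDH2, inside the gene, had 4 CG and 1 TGANTCA in its window, and 1 of the 2 windows of CDH4 held CAGGTG. The arrays measured no methylation, and these matches describe the letters only. CDH6, CDH11 and PCDH10 had no entry in the promoter table used here.

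Levels are log2 GCRMA signals, and each array's value is given. Levels of different genes were not set against each other, except in the summed signals of cell type markers, where brighter probe sets weigh more. A value under log2 5 was taken as background, and where both arrays of a culture lay under it the difference is a lower bound, written "at least". A gene or probe set over the limit in 1 culture alone passed the filter through that culture, which fixes the direction of its differences. For these the level and the bound are given without a p-value, although they remain in the counts. Differences and adjusted p-values come from limma fitted over all 10459 tested genes with Benjamini-Hochberg adjustment, and genes with an adjusted p below 0.05 are termed called. The members were picked with earlier results of these data known, so their calls describe them and support nothing beyond that. In bulk RNA, fewer cells with a transcript and less of it per cell cannot be told apart. Array medians lay between 2.78 and 2.83 and arrays of one culture correlated at r = 0.9845 to 0.9957 over genes, which are not independent replicates, and those of different cultures at 0.729 to 0.859.

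**Figure D1:**
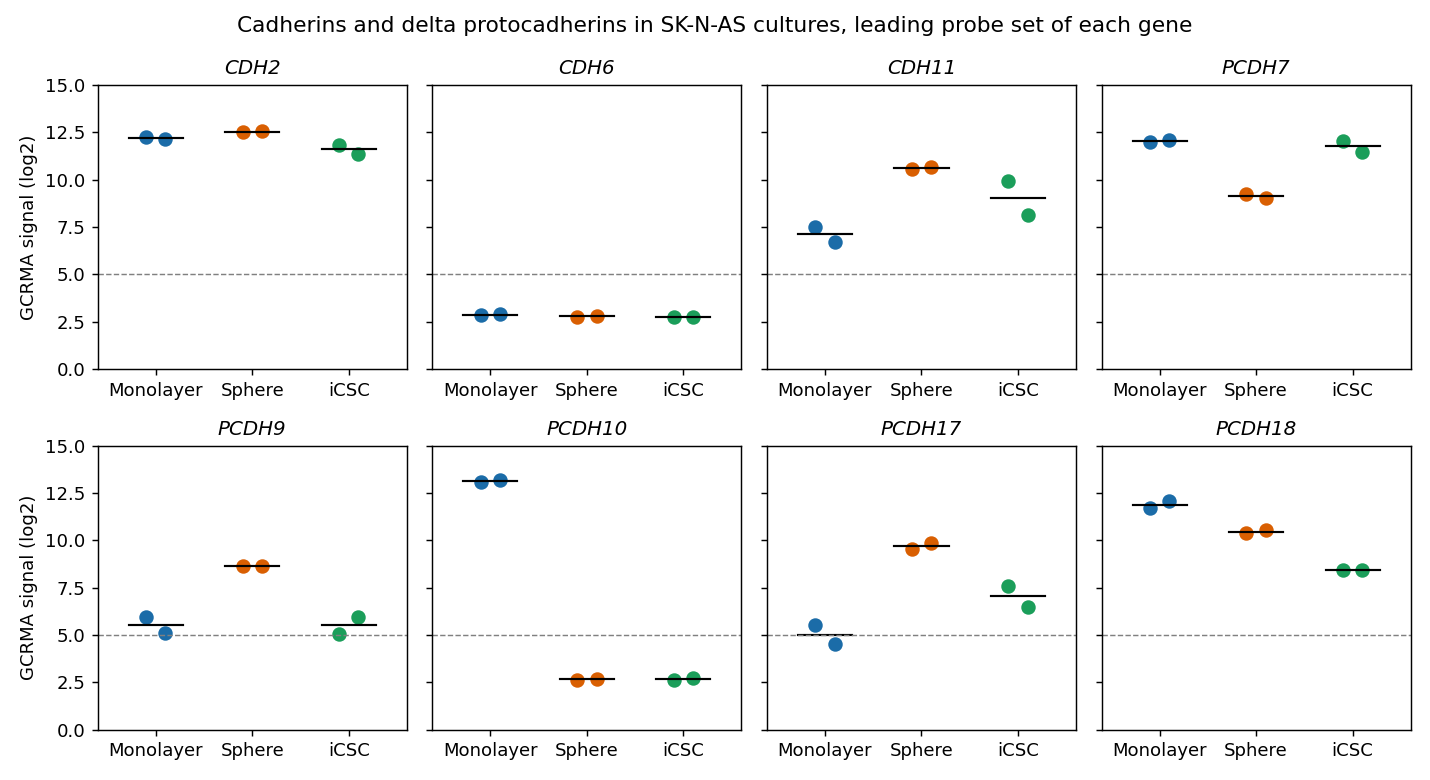
Log2 GCRMA signal of the leading probe set of the 8 measured members, by culture. Points are single arrays, the bar is their mean (n = 2), and the dashed line is the background limit at log2 5; PCDH10 lies near 13 in Monolayer and under 3 elsewhere, and CDH6 is under 3 on all arrays.

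Among the classical cadherins, CDH2 was present throughout, CDH11 was highest in Sphere, and CDH6 was not measured above background. CDH2, N-cadherin, the main cadherin of neural and many mesenchymal cells, lay at 12.24 and 12.15 on the Monolayer arrays, 12.50 and 12.56 on the Sphere arrays and 11.84 and 11.35 on the iCSC arrays. The cultures did not overlap, with iCSC lowest. iCSC was 0.94 ± 0.15 (log2, SE) below Sphere, a 1.92-fold difference (limma, adjusted p = 0.00424), and 0.60 ± 0.15 below Monolayer (adjusted p = 0.0162). The latter was lost without Monolayer replicate 1 (adjusted p = 0.105) or replicate 2 (0.0707), and moved to -0.36 without iCSC replicate 2. Sphere stood 0.34 ± 0.15 above Monolayer, which was not called (adjusted p = 0.102), but was called without iCSC replicate 1 (0.00767) or replicate 2 (0.00754). The other CDH2 probe set, tested among 18059 probe sets, showed the same order: iCSC was 1.33 ± 0.14 below Sphere and 0.91 ± 0.14 below Monolayer (adjusted p = 0.000623 and 0.00173), and Sphere was 0.42 ± 0.14 above Monolayer (0.0347).

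CDH11, OB-cadherin, an adhesion protein of mesenchymal and bone-forming cells, lay at 7.51 and 6.72 in Monolayer, 10.58 and 10.68 in Sphere, and 9.93 and 8.11 in iCSC. Both Sphere arrays were above all others, and the iCSC arrays were 1.82 apart. Sphere was 3.52 ± 0.57 above Monolayer, 11.5-fold (limma, adjusted p = 0.00205, and 0.0502 without variance moderation). iCSC was 1.90 ± 0.57 above Monolayer (adjusted p = 0.0279), a call lost under 9 of 15 alternatives, among them without iCSC replicate 1 (difference 0.99, adjusted p = 0.0528), Monolayer replicate 1 (0.0653), Monolayer replicate 2 (0.166), Sphere replicate 1 (0.0638) or Sphere replicate 2 (0.0636). The difference was 2.81 without iCSC replicate 2. iCSC lay 1.62 ± 0.57 below Sphere, which was not called (adjusted p = 0.0643), and was called without iCSC replicate 1 (difference -2.53, adjusted p = 0.00397).

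The leading CDH11 probe set has the suffix x_at, which marks probes that can bind related transcripts. Another lay at 7.40 and 7.53 in Sphere, under log2 5 on both Monolayer arrays, and at 6.62 and 4.62 in iCSC. In one more the iCSC arrays stood at 6.87 and 2.84, against 7.12 and 7.44 in Sphere and 3.10 and 2.54 in Monolayer. In these, Sphere was at least 5.52-fold and at least 4.85-fold above Monolayer. With 1 iCSC array over the limit, both needed Sphere to pass the filter, which fixes that direction. Neither iCSC comparison was called by limma over probe sets. In all 3, iCSC replicate 1 was nearer to Sphere and replicate 2 nearer to Monolayer. The remaining probe set stayed under log2 5 on all arrays. CDH6, K-cadherin, known from kidney and from the premigratory neural crest, had 6 probe sets with no value above 2.88, so it did not enter the test.

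**Figure D2:**
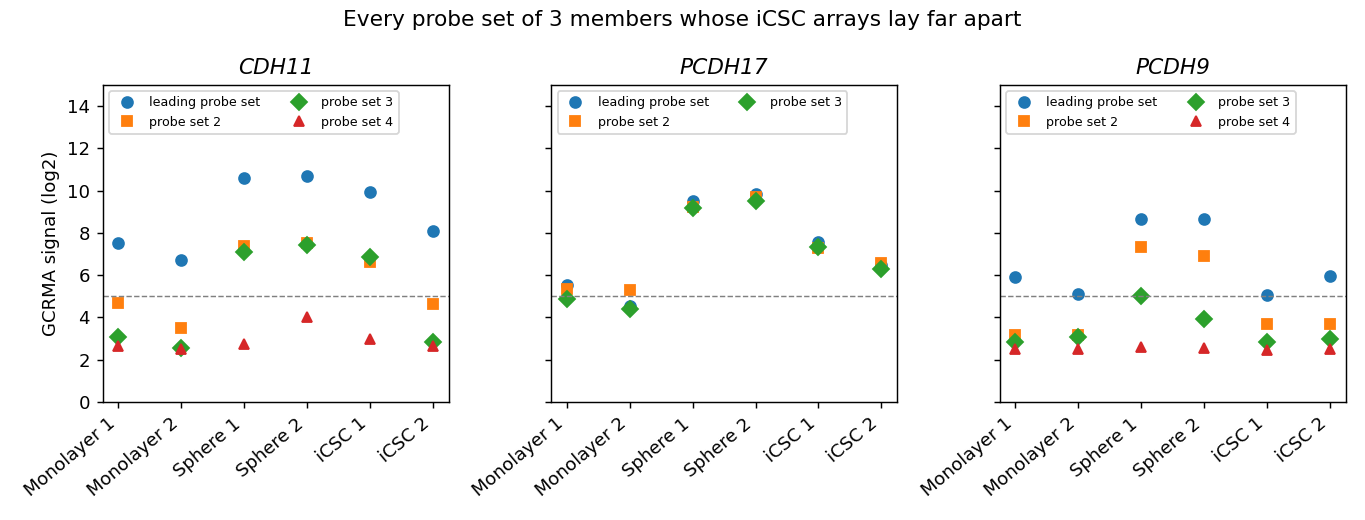
Log2 GCRMA signal of every probe set of CDH11, PCDH17 and PCDH9 on each of the 6 arrays, with the background limit dashed. The iCSC arrays of CDH11 stand 1.82 apart in the leading probe set, and those of PCDH17 1.10 apart.

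Of the delta protocadherins whose long tails bind PP1, PCDH7 fell and PCDH9 rose in Sphere against Monolayer, and iCSC differed from Sphere in the opposite direction for each. PCDH7, an adhesion protein of neurons, lay at 11.99 and 12.10 in Monolayer, 9.23 and 9.04 in Sphere, and 12.06 and 11.44 in iCSC. The Sphere arrays were apart from all others, while the Monolayer and iCSC arrays overlapped. Sphere was 2.91 ± 0.20 below Monolayer, 7.50-fold, and iCSC was 2.61 ± 0.20 above Sphere, 6.12-fold (limma, adjusted p = 4.41e-05 and 0.000156).

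iCSC differed from Monolayer by -0.29 ± 0.20 in the leading PCDH7 probe set, which was not called (adjusted p = 0.255), but was called without iCSC replicate 1 (-0.61, adjusted p = 0.0102). Of the other 4 PCDH7 probe sets, 3 were called lower in iCSC than in Monolayer, by 0.57 to 1.13 (limma over probe sets, highest adjusted p = 0.0125). In that comparison 54.2% of all 18059 probe sets were called. The same 3 were called lower in Sphere than in Monolayer, by 3.93 to 4.81, and higher in iCSC than in Sphere, by 3.33 to 3.72, where 57.0% and 34.5% of all probe sets were called. The remaining one was at 5.91 and 5.22 in Monolayer and under the limit elsewhere, at least 1.48-fold lower in both spheroid cultures. It passed the filter through Monolayer alone, which sets that direction, and its difference between the spheroid cultures has no measured size.

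PCDH9, expressed in developing and adult brain, lay at 5.93 and 5.11 in Monolayer, 8.67 and 8.66 in Sphere, and 5.07 and 5.94 in iCSC. Sphere stood above both other cultures, whose values overlapped just over the background limit. The difference was 3.14 ± 0.37 against Monolayer, 8.82-fold, and iCSC was 3.15 ± 0.37 below Sphere (limma, adjusted p = 0.000498 and 0.000967). Between iCSC and Monolayer it was -0.01 ± 0.37 (adjusted p = 0.982), and over the alternatives it ran from -0.45 to 0.52. A second probe set was at 7.35 and 6.91 in Sphere and under log2 5 in both other cultures, at least 4.38-fold lower in each, having passed the filter through Sphere alone. The other 2 were under log2 5 on all arrays.

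The remaining delta protocadherins, whose tails include WAVE-binding members, split into 3 patterns. PCDH10, OL-protocadherin, which draws the WAVE complex to cell contacts, lay at 13.06 and 13.19 in Monolayer, 2.65 and 2.67 in Sphere, and 2.62 and 2.73 in iCSC. It was present in Monolayer and at background in both spheroid cultures. It passed the filter through Monolayer alone, which sets the direction. The fall was at least 279-fold in each. Sphere and iCSC, both under background, have no measured difference. All 4 probe sets of PCDH10 behaved alike, with Monolayer values from 7.16 to 13.19 and none above 2.73 elsewhere, and the bounds of the other 3 ran from at least 4.74-fold to at least 30.3-fold.

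PCDH17, known from axons and synapses of the forebrain, lay at 5.51 and 4.53 in Monolayer, 9.53 and 9.85 in Sphere, and 7.59 and 6.49 in iCSC. The cultures did not overlap, with iCSC between the others, and 1 Monolayer array was under the background limit. Sphere was 4.67 ± 0.44 above Monolayer, and iCSC was 2.65 ± 0.44 below Sphere (limma, adjusted p = 0.000205 and 0.00462). iCSC was 2.02 ± 0.44 above Monolayer (adjusted p = 0.00873), a call lost without Monolayer replicate 2 (1.53, adjusted p = 0.0634). Without variance moderation both iCSC calls were lost (0.0771 against Sphere and 0.0900 against Monolayer). The other 2 probe sets were called in the same directions in all 3 comparisons. In Sphere they were 4.15 ± 0.28 and at least 20.3-fold above Monolayer, where the latter was under the limit. They were 2.54 ± 0.28 and 2.53 ± 0.36 lower in iCSC than in Sphere.

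PCDH18, whose mouse protein binds the adaptor DAB1, lay at 11.69 and 12.08 in Monolayer, 10.36 and 10.52 in Sphere, and 8.46 and 8.44 in iCSC. Each culture was apart from the others, in the order Monolayer, Sphere, iCSC. Sphere was 1.44 ± 0.15 below Monolayer, 2.71-fold, and iCSC was 1.99 ± 0.15 below Sphere, 3.98-fold (limma, adjusted p = 0.000262 and 0.000128). iCSC was 3.43 ± 0.15 below Monolayer, 10.8-fold (adjusted p = 7.61e-06). The other PCDH18 probe set fell from 8.62 and 8.82 to 6.57 and 6.66 in Sphere and was under log2 5 in iCSC, at least 3.07-fold below Sphere and at least 13.2-fold below Monolayer (adjusted p = 0.000219 and 7.32e-06).

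**Figure D3:**
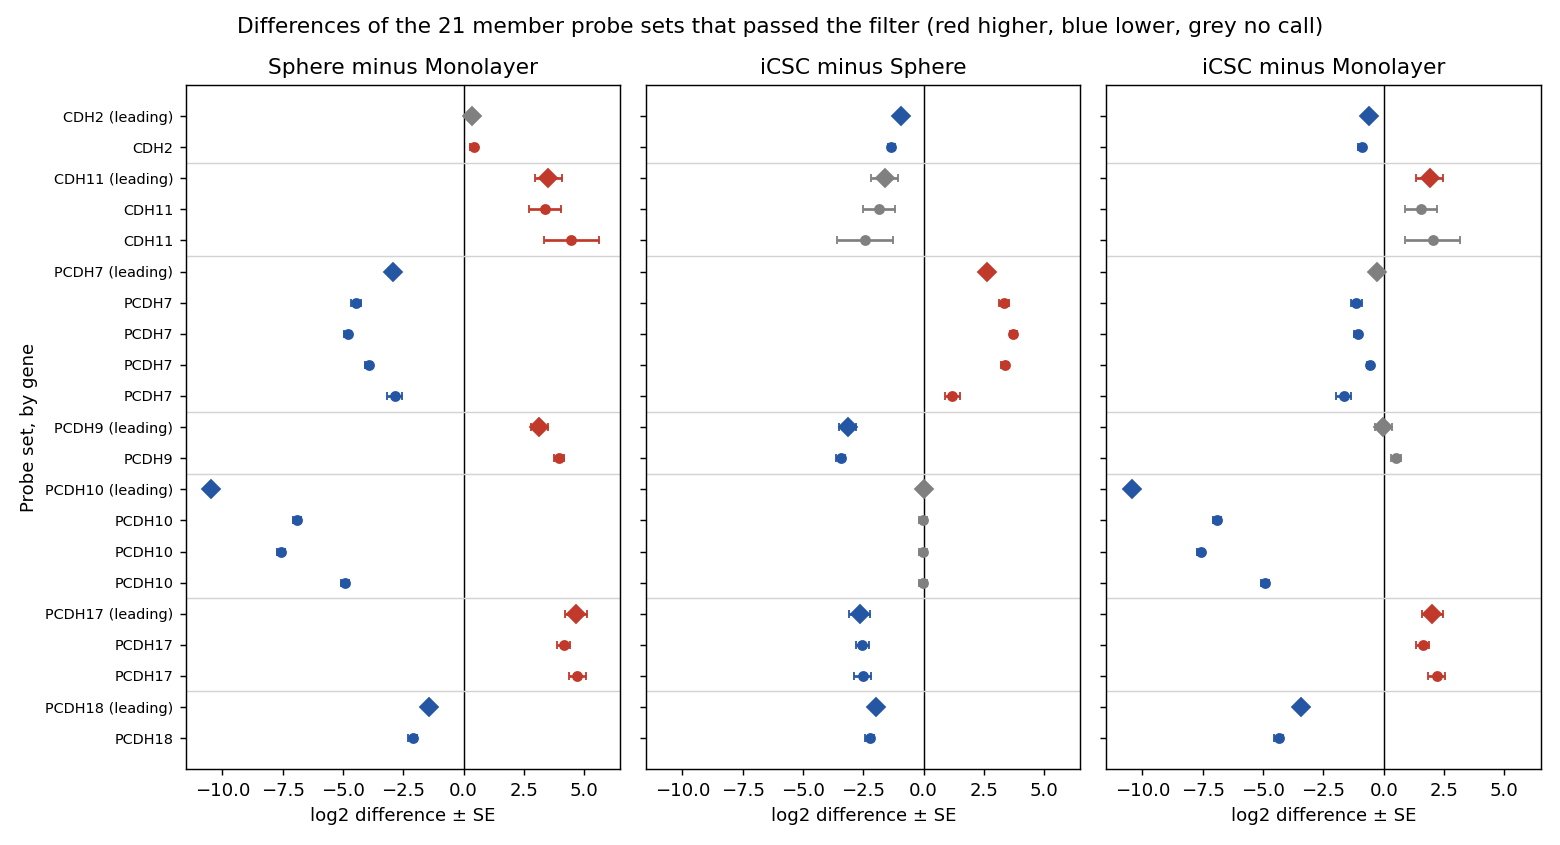
Log2 difference with its standard error for the 21 member probe sets that passed the filter, in the 3 comparisons; diamonds are the leading probe sets, red is called higher, blue called lower and grey not called. Probe sets of one gene lie on the same side of 0 wherever they are called. The filter fixed the side for probe sets over the limit in 1 culture alone, in comparisons with that culture.

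In Sphere against Monolayer, 6 of the 7 tested members were called, 3 higher (CDH11, PCDH9, PCDH17) and 3 lower (PCDH7, PCDH10, PCDH18), where 59.0% of all tested genes were called, 30.0% higher and 29.1% lower. In iCSC against Sphere, 1 was called higher (PCDH7) and 4 lower (CDH2, PCDH9, PCDH17, PCDH18), where 38.5% of all genes were called, 19.3% higher and 19.2% lower. In iCSC against Monolayer, 2 were called higher (CDH11, PCDH17) and 3 lower (CDH2, PCDH10, PCDH18), where 55.6% of all genes were called, 29.0% higher and 26.6% lower. The arrays of the tested members did not overlap for 7 of 7, 6 of 7 and 5 of 7 in these comparisons, against 84.2%, 69.4% and 79.8% of all genes. The comparisons share arrays. The median absolute log2 difference of the 7 members was 3.14, 1.99 and 1.90 in these comparisons, and that of all tested genes was 0.53, 0.34 and 0.49. The members entered through a filter on level and were picked with results known, so these figures describe them only. Of the member probe sets, 21 of 30 passed the filter, and no gene had passing probe sets called in opposite directions. For those that needed 1 culture to pass, among them all of PCDH10, the filter fixed the direction against that culture.

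The replicate arrays differed more for some members than for most genes. The gap between the iCSC arrays was 1.82 for CDH11, 1.10 for PCDH17 and 0.87 for PCDH9, larger than in 99.3%, 97.6% and 95.6% of the 10459 genes, whose median gap was 0.19. For CDH11 and PCDH17 iCSC replicate 1 was the higher array, and for PCDH9 replicate 2. The Monolayer arrays were 0.79, 0.99 and 0.83 apart for the same genes, and the Sphere arrays 0.10, 0.33 and 0.01. PCDH10 and PCDH18 differed by 0.12 and 0.02 between the iCSC arrays.

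Most of the cadherin superfamily genes that were listed outside the set were at background. Alpha and gamma protocadherins were not among the listed genes. Of 17 other classical cadherins 5 were tested, and CDH1 and CDH3, the cadherins of epithelia, reached at most 2.23 and 2.43. PCDH1, PCDH8, PCDH11X and PCDH19, the other delta protocadherins with probe sets, reached at most 2.87. In Sphere against Monolayer, CDH10 and CDH18 were called higher and CDH8 lower among the 5. CDH18 and CDH10, cadherins of the central nervous system, lay at 7.21 ± 0.65 and 6.30 ± 0.24 (SD, n = 2) in Sphere and under the limit in Monolayer and iCSC, at least 4.64-fold and at least 2.47-fold lower in each, both having passed the filter through Sphere alone. CDH8, another neural cadherin, was at 5.59 ± 0.26 in Monolayer and at least 1.51-fold lower in both spheroid cultures, through Monolayer alone. CDH7 was called lower in iCSC than in Sphere and than in Monolayer (the latter by limma, adjusted p = 0.0104). Both of its iCSC arrays were under the limit, so these falls have bounds only, at least 1.80-fold and at least 1.09-fold. Its Sphere arrays stood at 6.33 and 5.37, and its Monolayer arrays at 5.67 and, under the limit, 4.59. With 1 Monolayer array over the limit, CDH7 needed Sphere to pass the filter, which fixes its direction against Sphere. CDH24 was called higher in iCSC, at 5.96 and 7.58, than in Sphere (0.0273 by limma). Both Sphere arrays of CDH24 were under the limit, which makes the rise at least 3.41-fold.

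Among 17 large cadherins and calsyntenins, 7 were tested. In Sphere against Monolayer 2 were called higher (DCHS1, CELSR3) and 3 lower (FAT3, FAT4, CELSR1). In iCSC against Sphere 3 were called higher (FAT4, CELSR1, CLSTN1) and 1 lower (CELSR3), and in iCSC against Monolayer 4 higher (DCHS1, CELSR2, CELSR3, CLSTN1) and 2 lower (FAT3, CELSR1). DCHS1, the ligand of FAT4 in planar polarity, was under the limit in Monolayer and stood at 9.90 ± 0.21 in Sphere and 9.62 ± 0.25 in iCSC, at least 29.8-fold and at least 24.7-fold higher (limma, adjusted p = 1.07e-05 and 1.77e-05). FAT3 went the other way, from 6.94 ± 0.12 to under the limit in both, at least 3.85-fold lower, having passed the filter through Monolayer alone. CELSR1, a planar polarity receptor, was at 6.81 ± 0.19 in Monolayer, under the limit in Sphere and at 5.40 ± 0.07 in iCSC, and CELSR3 was at 6.20 ± 0.09, 9.19 ± 0.10 and 7.64 ± 0.41. Of 15 beta protocadherins 4 were tested, with 2 called higher (PCDHB2, PCDHB6) and 2 lower (PCDHB3, PCDHB14) in Sphere against Monolayer, 1 higher (PCDHB2) and 1 lower (PCDHB6) in iCSC against Sphere, and 1 higher (PCDHB2) and 2 lower (PCDHB3, PCDHB14) in iCSC against Monolayer. PCDHB2 was at 8.29 ± 0.26 in iCSC, at least 9.75-fold above both other cultures, and passed the filter through iCSC alone. It was under the limit in Monolayer and Sphere, so its call between them has no measured difference behind it. PCDHB6 was at 5.77 ± 0.60 in Sphere, at least 1.70-fold above both other cultures, and passed the filter through Sphere alone. PCDHB14 was 1.77 ± 0.39 lower in Sphere and 1.71 ± 0.39 lower in iCSC than in Monolayer (limma, adjusted p = 0.00819 and 0.0101). Beta protocadherins are close in sequence, so their probe sets may share signal.

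The catenins and other proteins that tie cadherins to actin were mostly measured in all 3 cultures. Of 12 tested, Sphere had 3 called higher and 6 called lower than Monolayer, with 3 and 2 in iCSC against Sphere, and 1 and 6 in iCSC against Monolayer. Beside the counts of this and the other lists, 59.0%, 38.5% and 55.6% of all tested genes were called in these comparisons. The 3 higher in Sphere were CTNNA2, AFDN and NECTIN1. Those higher in iCSC than in Sphere were CTNNAL1, VCL and ANK3, those lower CTNNA2 and AFDN, and the 1 higher in iCSC than in Monolayer was CTNNA2. CTNNB1, beta-catenin, had means of 12.78 ± 0.04 (Monolayer), 12.24 ± 0.02 (Sphere) and 12.47 ± 0.11 (iCSC), and CTNNA1, the broadly expressed alpha-catenin, of 12.88 ± 0.07, 11.86 ± 0.15 and 12.06 ± 0.09. CTNNA2, the neuronal alpha-catenin, was under the limit in Monolayer, at 8.42 ± 0.45 in Sphere and at 5.99 ± 0.09 in iCSC, with all 3 differences called (highest limma adjusted p = 0.00355). VCL, vinculin, was 2.39 ± 0.12 lower in Sphere and 1.95 ± 0.12 lower in iCSC than in Monolayer (limma, adjusted p = 1.11e-05 and 3.75e-05). ANK3, ankyrin-G, was 1.81 ± 0.13 lower in Sphere than in Monolayer (adjusted p = 5.21e-05) and 1.84 ± 0.13 higher in iCSC than in Sphere (0.000107).

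Of 12 desmosomal genes 4 were tested and no desmosomal cadherin was among them. The plaque proteins JUP and PKP2 were called higher and PKP3 and PKP4 lower in both spheroid cultures than in Monolayer. In iCSC against Sphere none of the 4 was called by limma (none at an unadjusted p under 0.05). PKP3 was at 6.87 ± 0.16 in Monolayer and at least 3.67-fold lower in both spheroid cultures, having passed the filter through Monolayer alone. Of 11 tested WAVE complex subunits and protocadherin partners, 1 was called higher (NCKAP1) and 4 lower (CYFIP1, CYFIP2, DAB1, FMR1) in Sphere than in Monolayer. Set against Sphere, iCSC had 2 called higher (WASF3, CYFIP1) and 1 lower (PPP1CA), and set against Monolayer it had 4 higher (NCKAP1, WASF2, WASF3, ABI1) and 3 lower (CYFIP2, DAB1, BRK1). NCKAP1, a subunit of the WAVE complex, was 0.50 ± 0.11 higher in Sphere and 0.44 ± 0.11 higher in iCSC than in Monolayer (limma, adjusted p = 0.00868 and 0.0152). CYFIP2 was 0.80 ± 0.19 lower in Sphere than in Monolayer (adjusted p = 0.0120), and CYFIP1 was 0.47 ± 0.08 higher in iCSC than in Sphere (0.00442). WASF3, a WAVE subunit, was at 8.30 ± 0.38 in iCSC and at least 9.87-fold lower in both other cultures, having passed the filter through iCSC alone. DAB1, the partner of PCDH18, was at 6.57 ± 0.04 in Monolayer and at least 2.98-fold lower in both spheroid cultures, through Monolayer alone. Of 5 tested enzymes that cleave cadherins, 4 were called lower in Sphere than in Monolayer (ADAM9, ADAM10, ADAM15, NCSTN), 3 higher in iCSC than in Sphere (ADAM9, ADAM10, NCSTN) and 2 lower in iCSC than in Monolayer (ADAM9, ADAM15). ADAM10, which sheds N-cadherin, had means of 11.94 ± 0.09 (Monolayer), 10.92 ± 0.20 (Sphere) and 11.69 ± 0.20 (iCSC), and ADAM9 of 12.33 ± 0.16, 9.48 ± 0.25 and 10.35 ± 0.08. ADAM15 was 1.83 ± 0.16 lower in Sphere and 1.89 ± 0.16 lower in iCSC than in Monolayer (limma, adjusted p = 0.000128 and 0.000143).

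**Figure D4:**
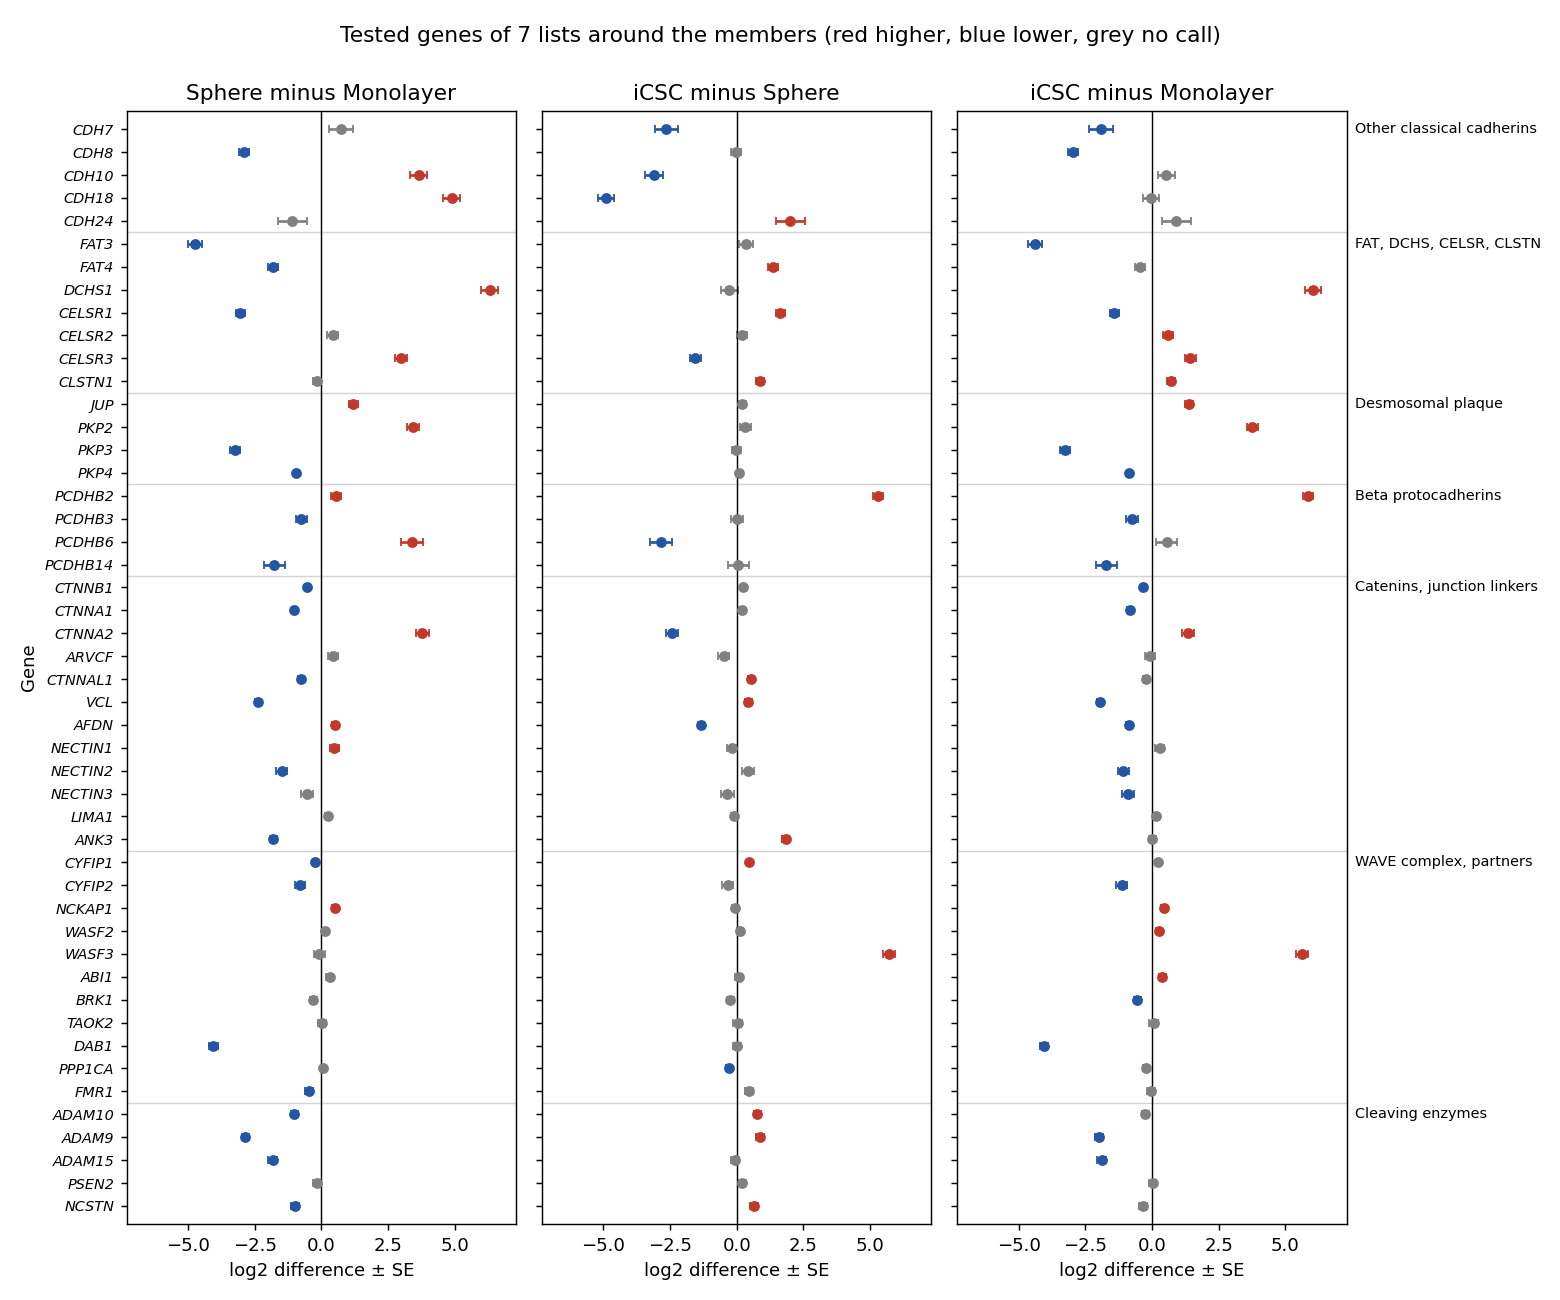
Log2 difference with its standard error for the 48 tested genes of 7 lists around the members, in the 3 comparisons; red is called higher, blue called lower and grey not called by limma. DCHS1 is called higher in both spheroid cultures than in Monolayer, and PCDHB2 and WASF3 are highest in iCSC.

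Markers of cell types moved beside these genes. Of 8 neuroblast markers with probe sets, 4 were over the limit on the Monolayer arrays, 7 on the Sphere arrays and 6 on the iCSC arrays, while DBH, the enzyme that makes noradrenaline, stayed under it on all 6. Their summed signal, on the log2 scale, was 9.87 to 10.08 in Monolayer, 14.42 to 14.60 in Sphere and 12.47 to 12.53 in iCSC. Over the 7 without CHGA, the brightest of them in both spheroid cultures, it was 9.82 to 10.04, 12.63 to 13.00 and 9.39 to 9.70, with iCSC below Monolayer. In iCSC against Monolayer PHOX2A, TH and CHGA were called higher and GATA2 and ISL1 lower. Of 6 fibroblast markers, 4 were over the limit in Monolayer, 6 in Sphere and 5 or 6 in iCSC, and their summed signal was 11.31 to 11.38, 13.68 to 13.79 and 12.15 to 12.33. The fibroblast sum had the order of CDH11 and PCDH17. The neuroblast sum had that order with CHGA but not without it. In Sphere the fibroblast sum was led by LUM, at 13.05 and 13.31. Taken singly, PDGFRB, LUM and DCN were highest in Sphere, PDGFRA in Monolayer, and COL1A1 and THY1 in iCSC. The part of the neuroblast and fibroblast markers in the CDH11 and PCDH17 results was not tested. Of the leukocyte markers only PTPRC was over the limit, at 11.64 to 12.52 on the Monolayer and Sphere arrays and at 2.85 and 2.87 in iCSC, and CD14, CD3D, CD3E, TYROBP and SPI1 reached at most 2.45. The Schwann and glial markers S100B, SOX10 and GFAP reached at most 2.89. Of 5 epithelial markers KRT8 and KRT18 were over the limit in Monolayer and Sphere, and KRT18 alone in iCSC. The summed signal was 12.88 to 13.05 in Monolayer, 8.29 to 8.55 in Sphere and 8.18 to 8.45 in iCSC. CDH1, EPCAM and KRT19 were at background on all 6 arrays. Of 5 endothelial markers TEK was over the limit in Monolayer only, and the summed signal was 8.03 to 8.15, 5.94 to 5.99 and 6.12 to 6.34. These sums take each gene's brightest probe set, and a dimmer one of PECAM1 stood at 5.45 and 5.73 in Sphere.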

How the data were processed

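Messenger RNA was measured on 6 arrays. Per the labels' protocols, 200 ng of total RNA were amplified and labelled with biotin. The deposited values are log2 signals per probe set, for which the submitters' processing notes name GCRMA and Partek without version or settings. Probe sets were named through the platform annotation, and Entrez identifiers gave current RefSeq GRCh38.p14 symbols (41037 of 41091 single-symbol probe sets matched); 1801 with several symbols, 11721 with none and 62 controls were left out of the tests. A probe set entered at log2 5 or more on at least 2 of 6 arrays (18059 probe sets, 10459 genes). limma 3.58.1 in R 4.3.3 fitted a mean per culture with trended variance moderation on 3 residual degrees of freedom and no covariate, two-sided. The fit was run on simulated data with independent noise on each array, which cannot show how it behaves if the replicate arrays depend on each other. The number of arrays limits the precision. The members and lists were chosen with earlier results of these data known. Of each other list, the text names the 2 called genes with the largest absolute difference per comparison and those needed to account for a count of 5 or fewer; CDH1, CDH3, CTNNA1, CTNNB1 and single markers were named after their values were seen. Alternatives were other filters, a floor, renewed quantile normalization, other probe sets, other variance models, a replicate block and leaving out each array. Figures were drawn with matplotlib 3.10.9.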

Additional observations from a re-analysis of the deposited data

How the results depend on the processing

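The 21 differences of the 7 tested members were recomputed under 15 alternatives. Of 315 values, 290 kept their side of the threshold, 17 kept direction but lost the call, 8 gained one and none reversed a call. Among the 290, 6 changed sign and 1 became 0, all in differences that were not called (iCSC against Monolayer 4 for PCDH9 and 1 for PCDH7, and iCSC against Sphere for PCDH10, under background in both). The number of genes called in iCSC against Sphere, 4022, was 2281 without variance moderation, and ranged from 2574 to 3883 when 1 array was left out (2574 without Sphere replicate 1). With no filter 19775 genes entered, and 29.8%, 18.3% and 27.4% were called. The replicate numbers are shared by the cultures, but nothing in the labels says that they pair the arrays. The replicate differences correlated at 0.0186, -0.0530 and 0.173 between Monolayer and Sphere, Monolayer and iCSC, and Sphere and iCSC. With the replicate number as a block, 6219, 4106 and 5891 genes were called, and CDH11 in iCSC against Sphere gained a call (-1.62, adjusted p = 0.0244); no other member call changed. Without x_at and s_at probe sets CDH11 in iCSC against Monolayer was 2.03 (adjusted p = 0.181). CDH2 in Sphere against Monolayer was called after renewed quantile normalization (0.43, adjusted p = 0.0443). Without variance moderation CDH2 was not called in iCSC against Sphere (adjusted p = 0.0690) or Monolayer (0.108). Signals near log2 5, as for PCDH9 and PCDH17 in Monolayer, carry the least information.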
